A study of Mus musculus with 3 samples.

Results

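The barcodes described here are the 72 epithelial barcodes of the posterior library, out of 3276 barcodes in that library and 8361 in the 3 libraries of the series. A barcode stands for 1 droplet, and a UMI (unique molecular identifier) for 1 captured RNA molecule. The posterior library came from the posterior section of the atria of Baf53b-cre;lox-GFP mice labelled 4 months old, of both sexes. The anterior library came from the anterior section at 3 months and the mixed library from pooled ganglia at 2 months, with the same genotype and both sexes. In these mice Cre is driven by the neuronal gene Baf53b (Actl6b) and turns on GFP, fluorescent cells were sorted, and RNA was captured with the 10x Genomics 3′ V3 chemistry. The protocol names 10 mice and gives neither their division between libraries nor a replicate of any library, so region, library and labelled age cannot be told apart and no test was made. Every library is labelled as neurons.

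A posterior barcode was counted as epithelial when it held at least 1000 UMIs, at least 500 detected genes, at most 20% mitochondrial UMIs, fewer than 20 UMIs of Snap25, Prph and Stmn2 together per 10000, and a UMI of at least 3 of the 5 genes Epcam, Krt8, Krt18, Cdh1 and Cldn7. The other 662 barcodes that passed the same limits with fewer than 3 of those epithelial genes are called other non-neuronal barcodes, and the 1890 at or above the Snap25, Prph and Stmn2 limit are called neuronal. Among the epithelial barcodes, 5 reached 20 UMIs of Scgb1a1 or Scgb3a2 per 10000 and are called airway secretory. A further 57 held at least 3 of 8 neuroendocrine genes, among them Calca, Chga, Chgb, Scg5, Resp18, Syp and Insm1, and are called neuroendocrine-like, a division made after the barcodes had been seen. The last 10 are called remaining. The barcodes were thus chosen by measured values: the rule used the 5 epithelial genes with Snap25, Prph and Stmn2, the divisions used the secretoglobins and the 8 neuroendocrine genes, and values of all these genes are given as description.

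Epithelial cells line ducts and airways and are joined by claudin-based tight junctions, E-cadherin (Cdh1) contacts and keratin filaments such as those of Krt8 and Krt18. In mouse airways, club cells secrete secretoglobins, and rare neuroendocrine cells package peptides such as CGRP (from Calca) in dense-core granules and touch sensory nerve endings. Nkx2-1 is a transcription factor of the lung and thyroid lineages, and Foxa1 and Foxa2 are factors of endoderm-derived epithelia.

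The posterior library held 86391988 UMIs. Epithelial barcodes had a median of 6253.5 UMIs (lowest 1085, highest 64316), other non-neuronal barcodes 5456.5 and neuronal barcodes 47822. Of the 568554 UMIs of all epithelial barcodes, the 57 neuroendocrine-like barcodes held 61.3% and the 5 airway secretory barcodes 24.7%, and the 3 deepest barcodes alone held 22.9%. Levels are therefore given per barcode (UMIs per 10000) as well as in CPM, a group's summed UMIs scaled to a total of 1000000. Scrublet marked 7 of the 2624 passing barcodes (0.267%), too few for a working doublet call, and 0 of the 72 were among them or among the 3% with the highest scores. The posterior library shared 3 barcode sequences with the anterior library and 3 with the mixed library, and 0 of these were epithelial.

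Epithelial barcodes were found in the posterior library and in the mixed library. They made up 72 of 734 non-neuronal barcodes in the posterior library (9.81%, exact Clopper-Pearson 95% interval 7.75 to 12.2), against 0 of 431 in the anterior library, where a count of 0 allows a share of up to 0.696% by the limit of 3 counts and 0.852% by the exact interval, and 8 of 393 in the mixed library (2.04%, 0.883 to 3.97). All such intervals cover counting error only. After each barcode was thinned to 1000 UMIs, 51 of 734 posterior barcodes (6.95%), 0 of 431 anterior barcodes and 4 of 393 mixed barcodes (1.02%) met the rule. Median depths of non-neuronal barcodes were 5563 UMIs in the posterior, 3314 in the anterior and 4604 in the mixed library. The order of the libraries was the same with and without thinning.

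**Figure D1:**
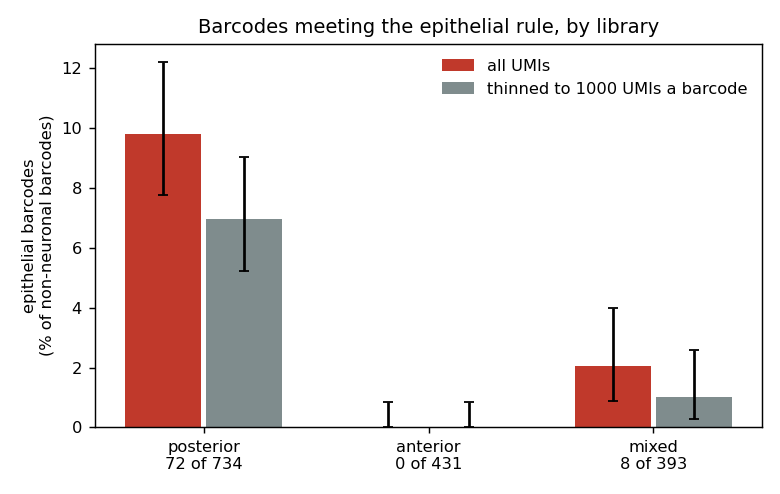
Share of non-neuronal barcodes meeting the epithelial rule (y axis, percent) in the posterior, anterior and mixed libraries, with all UMIs (red) and after thinning each barcode to 1000 UMIs (grey); error bars are exact 95% binomial intervals. The posterior share is 9.81% and the thinned share 6.95%, while the anterior library has 0 such barcodes.

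The 5 genes of the rule were high in most epithelial barcodes. Epcam (chr17:87635979-87651129, mm10), a homophilic adhesion molecule of epithelia, had a lowest, median and highest level of 0, 13.5 and 35.3 UMIs per 10000 in epithelial barcodes, against 0, 0 and 3.83 in other non-neuronal barcodes. Krt18, a filament protein of simple epithelia, had 0, 22.6 and 70.5 UMIs per 10000 in epithelial barcodes, against 0, 0 and 23.4 in other barcodes. Both genes are part of the rule, so the difference between their medians follows from it, and their ranges overlapped. Cldn7, a claudin, was detected in 98.6% of epithelial and 0.604% of other barcodes, and Cdh1, which encodes E-cadherin, in 73.6% and 4.68%. All 5 genes were detected in 49 of the 72 and 4 of them in 17. At the edge of the rule, 6 members held exactly 3 of the 5 genes (median depth 3904.5 UMIs), and 12 barcodes just outside held exactly 2 (median 17818.5 UMIs). The highest summed level of Snap25, Prph and Stmn2 in a member was 19.8 per 10000, and the lowest in the 5 barcodes excluded by that limit alone was 24.1.

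Other epithelial genes went with those of the rule, as far as a ratio of sums within 1 library shows. A gene was compared when the higher sum held at least 20 UMIs and 10 CPM, and called when the ratio, with 10 CPM added to both sums, reached 4-fold. Of 8508 genes compared, 278 were at least 4-fold higher in epithelial than in other non-neuronal barcodes (3.27%) and 642 were at least 4-fold lower (7.55%), and the median log2 ratio was -0.24. Of 20 further pan-epithelial genes, 13 could be compared, 12 were higher and 0 lower, with a median log2 ratio of 3.19. Leaving out the 5 airway secretory barcodes gave 269 higher genes (3.46%) and 646 lower ones (8.31%), and 219 of the 269 were among the 278. Because the groups were cut from the same counts, these numbers describe the groups and test nothing.

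Genes of epithelial junctions were among the higher ones. Krt7, a keratin of simple epithelia, had 0, 10.1 and 37.1 UMIs per 10000 (lowest, median, highest) in epithelial barcodes, against 0, 0 and 33.8 in other barcodes, and its summed ratio was 56.8 (95% counting interval 44.2 to 73.9). Cldn3, a tight junction claudin, was detected in 84.7% of epithelial and 1.21% of other barcodes. Cldn4, a further claudin, had 88 UMIs in epithelial barcodes and 0 in the others, which makes its summed level at least 220-fold higher, measured against 3 counts over the other barcodes. It was found in 34.7% of epithelial barcodes only. Of the 22 tight junction genes in the files, 8 could be compared, and 5 were higher (F11r, Cldn3, Cldn4, Cldn23 and Crb3) and 0 lower. The share of higher genes over all genes compared was 3.27%. Of 18 desmosome and adherens junction genes, 8 were compared and 1 was higher, the desmosome linker Dsp, at 142 CPM in epithelial and 8.21 CPM in other barcodes. Broadly used junction genes such as the catenin Ctnnb1 had 181 CPM in epithelial and 150 CPM in other barcodes. The membrane serine protease inhibitors Spint1 and Spint2 were higher, at 120 and 661 CPM in epithelial barcodes, against 9.15 and 51.6 CPM in other barcodes.

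Epithelial transcription and splicing factors followed. Of 22 listed, 11 were compared, 8 were higher (among them Elf3, Ehf, Klf5, Esrp1, Foxa1, Foxa2 and Nkx2-1) and 1, Sox9, was lower. Over all genes compared, 3.27% were higher and 7.55% lower. Nkx2-1 (chr12:56531958-56536908) had 91 UMIs in 68.1% of epithelial barcodes, against 6 UMIs in 0.604% of other barcodes, and its summed ratio was 114 (50.3 to 318). It was present in all 3 divisions, with 215 CPM in neuroendocrine-like, 42.7 CPM in airway secretory and 125 CPM in remaining barcodes. The last 2 levels rest on few UMIs, in 3 of 5 airway secretory and 4 of 10 remaining barcodes. An airway secretory barcode with 6 of the 8 neuroendocrine genes held 3 of these UMIs, and 1 remaining barcode, of 8256 UMIs, held 6. After thinning, Nkx2-1 was detected in 9 of 57 neuroendocrine-like, 0 of 5 airway secretory and 3 of 10 remaining barcodes. Foxa1 was detected in 50% of epithelial and 0.453% of other barcodes, and Elf3 in 41.7% and 0.453%. The thyroid and parathyroid list, the other Nkx2-1 lineage considered, had 7 of its 8 genes at 0 in epithelial barcodes, and Foxn1, which defines thymic epithelium, was at 0 too.

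Most of the epithelial barcodes carried neuroendocrine genes. Of the 57 neuroendocrine-like barcodes, 13 held all 8 listed genes, 49 held at least 6, and 1 held exactly 3; of the 10 remaining barcodes, 1 held 2. The 57 also had all 5 epithelial rule genes in 45 barcodes and 4 of them in the other 12. At least 3 of the 8 genes were found in 58 of 72 epithelial barcodes, 32 of 662 other non-neuronal and 1580 of 1890 neuronal barcodes, so this list alone does not set epithelial barcodes apart from neurons.

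**Figure D2:**
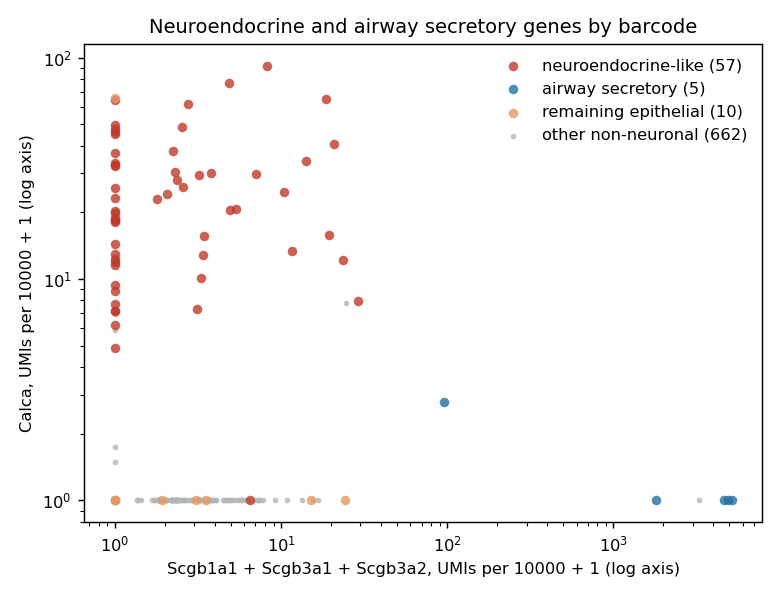
Calca (y axis) against Scgb1a1, Scgb3a1 and Scgb3a2 (x axis), both as UMIs per 10000 plus 1 on log axes, for each neuroendocrine-like (red), airway secretory (blue), remaining epithelial (orange) and other non-neuronal (grey) posterior barcode. Most neuroendocrine-like barcodes lie high on the Calca axis, and 4 of the 5 airway secretory barcodes lie at the far right with 0 UMIs of Calca; the fifth has 1 UMI of it.

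Peptide and granule genes came first among them. Calca (chr7:114631478-114636357), the source of calcitonin and CGRP, had 0, 19.6 and 90.9 UMIs per 10000 (lowest, median, highest) in neuroendocrine-like barcodes, against 0, 0 and 6.76 in other non-neuronal and 0, 0 and 63.0 in neuronal barcodes. It was detected in 98.2% of neuroendocrine-like barcodes, 0.755% of other and 2.49% of neuronal barcodes, although the neuronal ones were deepest, and after thinning in 84.2%, 0.151% and 0.159%. Summed, it was 948-fold (540 to 1842) above other non-neuronal and 2249-fold (1822 to 2805) above neuronal barcodes. Its paralog Calcb, the second CGRP gene, had 2 UMIs in neuroendocrine-like barcodes, 7 in other and 548 in neuronal barcodes. Resp18, a protein of endocrine secretory granules, had 1.34, 19.8 and 77.6 UMIs per 10000 in neuroendocrine-like barcodes, against 0, 0 and 48.3 in other and 0, 3.31 and 104 in neuronal barcodes. Resp18 was in every neuroendocrine-like barcode, but its range lay within that of neurons. Calca and Resp18 are both among the genes used to choose the neuroendocrine-like barcodes. Their detection and ratios in this group therefore follow in part from the choice and are given as description.

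Of 23 peptide hormone and granule genes, a list assembled after the barcodes had been seen, 17 could be compared between neuroendocrine-like and other non-neuronal barcodes. Among all 7400 genes compared, 3.42% were higher and 10.8% lower. Of the 17, 8 were higher and 0 lower, but 5 of the 23 genes had chosen the neuroendocrine-like barcodes. Without those 5, 12 were compared, and 5 were higher (Iapp, Scg2, Pcsk1, Ptprn and Ptprn2) and 0 lower. Against neuronal barcodes, where 5.58% of 6629 genes were higher and 6.11% lower, 15 were compared without those 5, with 3 higher (Iapp, Scg2 and Pcsk1) and 5 lower. Iapp was detected in only 5 of the 57 neuroendocrine-like barcodes, and 282 of its 355 UMIs came from 1 of them. The prohormone convertase Pcsk1 had 812 CPM in neuroendocrine-like, 5.86 CPM in other and 47.5 CPM in neuronal barcodes, and the granin Scg2 had 588, 80.7 and 81.6 CPM in the same order. The granins Chga and Chgb, both used in the division, did not reach 4-fold in either comparison. Chga had 307 CPM in neuroendocrine-like, 186 CPM in other and 94.0 CPM in neuronal barcodes. Chgb had 505 CPM in neuroendocrine-like, 651 CPM in other non-neuronal barcodes, where 47 of the 662 held it, and 136 CPM in neuronal barcodes. Npy and Cartpt, peptides of many of these neurons, were lower than in neurons, at 164 CPM each in neuroendocrine-like barcodes, against 2987 and 1951 CPM in neuronal barcodes. Grp (gastrin-releasing peptide) was at 0 in all 72 epithelial barcodes.

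The upstream sequences of 2 of these genes are shown because their counts define the group, with the E-box CAGCTG, a motif of basic helix-loop-helix factors, in capitals where present. They are the 250 bases before the gene's start in RefSeq on GRCm38.p6, written 5′ to 3′ on the gene's strand. Calca lies on the minus strand (chr7:114636358-114636607) and holds no CAGCTG in this window. Resp18 lies on the minus strand (chr1:75278416-75278665), and its CAGCTG begins 73 bases before the start.
Calca: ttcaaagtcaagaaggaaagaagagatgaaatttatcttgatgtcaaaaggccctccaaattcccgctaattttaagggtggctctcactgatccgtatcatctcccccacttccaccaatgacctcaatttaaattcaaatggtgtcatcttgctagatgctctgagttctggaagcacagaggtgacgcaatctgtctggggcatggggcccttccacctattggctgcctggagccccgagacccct
Resp18: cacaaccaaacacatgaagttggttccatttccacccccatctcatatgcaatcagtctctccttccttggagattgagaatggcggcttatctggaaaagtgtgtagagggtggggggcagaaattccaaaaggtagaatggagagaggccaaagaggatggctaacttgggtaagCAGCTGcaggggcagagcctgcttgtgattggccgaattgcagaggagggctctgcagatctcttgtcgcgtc
CAGCTG, which reads the same on both strands, occurs in 13.0% of all 32851 windows of this length. Of the 25 genes with the largest epithelial ratios (at least 50 UMIs and a UMI in at least 25% of epithelial barcodes), 20 had a window and 4 held it (Cldn4, Espn, Krtap17-1 and Resp18). Scgb1a1 had no entry in that table.

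Transcription factors of neuroendocrine and lung epithelium were present. Of 15 neuroendocrine and foregut factors, also listed after the barcodes had been seen, 13 had no part in choosing the barcodes. Of these, 12 were compared with other non-neuronal barcodes, and 7 were higher (Prox1, Hes6, Nkx2-1, Foxa1, Foxa2, Meis2 and Irx2) and 3 lower (Hes1, Sox9 and Hand2). Over all genes compared, 3.42% were higher and 10.8% lower.

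Several homeobox and forkhead genes were also far above their level in neurons. Meis2 had 0, 8.21 and 33.0 UMIs per 10000 in neuroendocrine-like barcodes, against 0, 0 and 16.8 in neuronal barcodes, and 927, 34.7 and 0.185 CPM in neuroendocrine-like, other and neuronal sums. Prox1 had 247, 8.21 and 4.18 CPM in the same order. Insm1, a zinc finger factor of endocrine cells and one of the genes of the division, was detected in 68.4% of neuroendocrine-like, 1.96% of other and 0.476% of neuronal barcodes. Foxa2 had 50 UMIs in neuroendocrine-like and 0 in all neuronal barcodes, at least 3870-fold higher against 3 counts over the neuronal barcodes. Hand2, a factor of autonomic neurons, ran the other way, with 9 UMIs or 25.8 CPM in neuroendocrine-like barcodes, against 355 CPM in neuronal barcodes. Neurod1 was at 0 in epithelial barcodes.

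**Figure D3:**
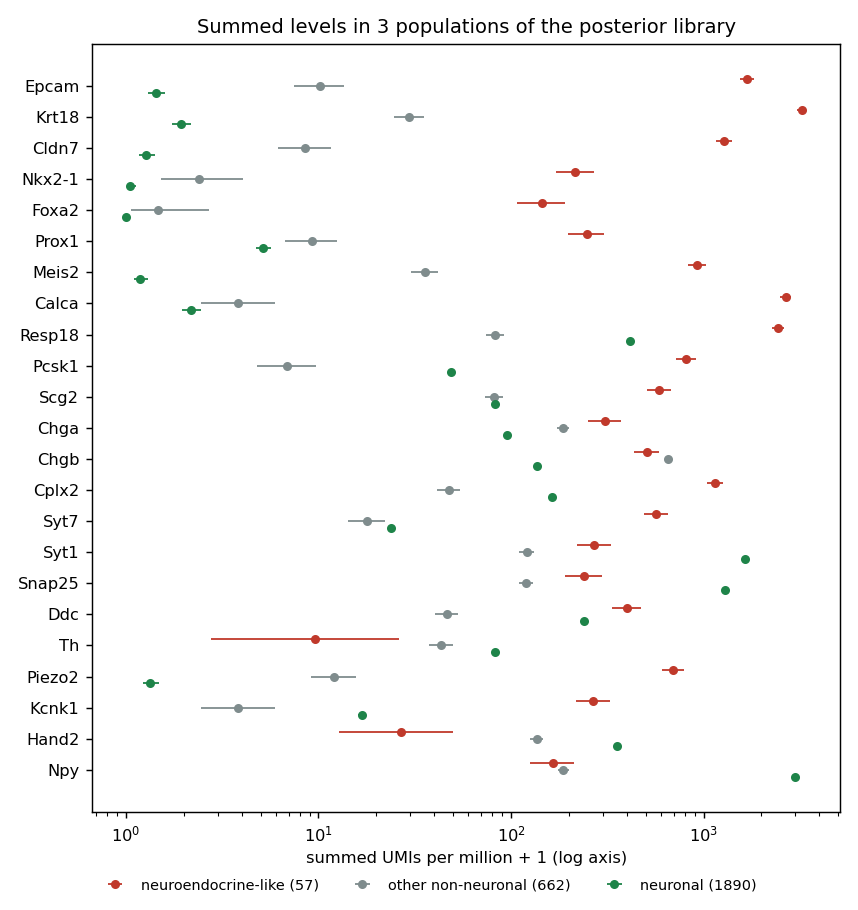
Summed level of 23 genes (x axis, CPM plus 1, log axis) in neuroendocrine-like (red), other non-neuronal (grey) and neuronal (green) posterior barcodes, with exact 95% Poisson intervals, which cover counting error only. Epcam, Krt18, Cldn7, Nkx2-1, Foxa2, Prox1, Meis2 and Calca are highest in the red points, and Syt1, Snap25, Hand2 and Npy in the green ones. Of these, Epcam, Krt18, Cldn7, Calca and Snap25 were used to choose the barcodes.

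Exocytosis genes were split. Of 16 listed, 14 had no part in choosing the barcodes. Of those, 11 were compared with other non-neuronal barcodes and 3 were higher, and 13 were compared with neuronal barcodes, where 2 were higher and 6 lower. The shares of all genes compared were 3.42% higher and 10.8% lower against other non-neuronal barcodes. Against neuronal barcodes the shares were 5.58% and 6.11%. Cplx2, a complexin that clamps vesicle fusion, had 2.32, 11.2 and 35.4 UMIs per 10000 in neuroendocrine-like barcodes, against 0, 0 and 14.7 in other and 0, 0.885 and 21.7 in neuronal barcodes. Syt7, a calcium sensor of granule release, had 568, 16.9 and 22.9 CPM in neuroendocrine-like, other and neuronal sums. Syt1, the calcium sensor of fast synaptic release, had 270, 120 and 1636 CPM. Cplx2 and Syt7 were thus above the neuronal level and Syt1 below it; the low level of Snap25 follows in part from the rule, which limits it.

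The amine and amino acid transmitter genes differed from each other. Ddc, the aromatic amino acid decarboxylase, had 399 CPM in neuroendocrine-like, 45.5 CPM in other and 239 CPM in neuronal barcodes, and Gad1, which makes GABA, had 129, 0.469 and 0.0371 CPM. Th and Dbh, which make catecholamines, had 3 UMIs each in neuroendocrine-like barcodes, the vesicular amine transporter Slc18a2 had 0 and the serotonin enzyme Tph1 had 1. The other vesicular amine transporter, Slc18a1, had 11 UMIs in 10 neuroendocrine-like barcodes, or 31.6 CPM, against 20.2 CPM in other and 5.48 CPM in neuronal barcodes. Of the 12 listed genes, 6 were compared with other non-neuronal barcodes and 2 were higher, beside 3.42% of all 7400 genes compared. Among 18 sensory and excitability channels, 8 were compared, beside the same share over all genes, and 4 were higher. They were the mechanically gated channel Piezo2, the potassium channel Kcnk1 and the calcium channels Cacna1a and Cacna1h. Piezo2 (chr18:63010213-63387183) had 0, 6.11 and 19.8 UMIs per 10000 in neuroendocrine-like barcodes, against 0, 0 and 13.9 in other and 0, 0 and 25.2 in neuronal barcodes. It was detected in 91.2% of neuroendocrine-like barcodes, 4.98% of other and 0.529% of neuronal barcodes. Trpa1 and P2rx3, sensory channels of other cells, were at 0.

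Many immediate early genes were higher in neuroendocrine-like than in neuronal barcodes. Against neuronal barcodes, 17 of 20 immediate early and stress genes were compared, with 14 higher and 1 lower in neuroendocrine-like barcodes. Over all genes compared with neuronal barcodes, 5.58% were higher and 6.11% lower. Fos had 9718 CPM in neuroendocrine-like, 3335 CPM in other and 292 CPM in neuronal barcodes, and Atf3 had 3777, 858 and 51.1 CPM. Against other non-neuronal barcodes 19 were compared, and 2 were higher (Atf3 and Ier2) and 4 lower (Ier3, Hspa1a, Hspa1b and Hspb1) in neuroendocrine-like barcodes, while for all 72 epithelial barcodes 0 of 19 reached 4-fold in either direction. Shares over all genes were 3.42% higher and 10.8% lower for neuroendocrine-like barcodes, and 3.27% and 7.55% for all epithelial ones. Whether tissue dissociation plays a part was not tested. Of 16 cell cycle genes, 13 were compared between epithelial and other barcodes and 0 reached 4-fold; Mki67 was at 0 in epithelial barcodes.

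Actl6b (Baf53b), the driver of the reporter, had 12 UMIs in the 72 epithelial barcodes, all in neuroendocrine-like ones. Its summed level was 34.4 CPM in neuroendocrine-like, 4.22 CPM in other and 68.3 CPM in neuronal barcodes. It was detected in 15.3% of epithelial, 2.57% of other and 67.5% of neuronal barcodes; after thinning, in 5.56%, 0.453% and 5.34%. The thinned shares of epithelial and neuronal barcodes rest on 4 of 72 and 101 of 1890 barcodes. The reporter sequence was counted in the mixed library only, where eGFP had a UMI in 0 of 8 epithelial, 2 of 385 other non-neuronal and 295 of 2045 neuronal barcodes.

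The 5 airway secretory barcodes held the secretoglobins in bulk. They had 4812, 5592, 31058, 34599 and 64316 UMIs, and in that order Scgb1a1, the main club cell secretory protein, had 1382, 73.3, 3628, 4037 and 3539 UMIs per 10000. The other 67 epithelial barcodes lie below 20 per 10000 for Scgb1a1 and Scgb3a2 by the division itself, and their highest level was 16.8. The highest Scgb1a1 level in an other non-neuronal barcode was 1779 per 10000. Scgb3a1 had 290.9, 19.7, 888.7, 826.9 and 1122 UMIs per 10000 in the same 5 barcodes. The barcode of 5592 UMIs stood apart for both genes, and it also held 6 of the 8 neuroendocrine genes, with 19 UMIs of Resp18 and 15 of Epcam. The other 4 had 0 UMIs of Calca. The deepest barcode held all 13 club cell genes and all 12 ciliated cell genes, with 35 UMIs of Ccdc153 and 7 of Foxj1.

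**Figure D4:**
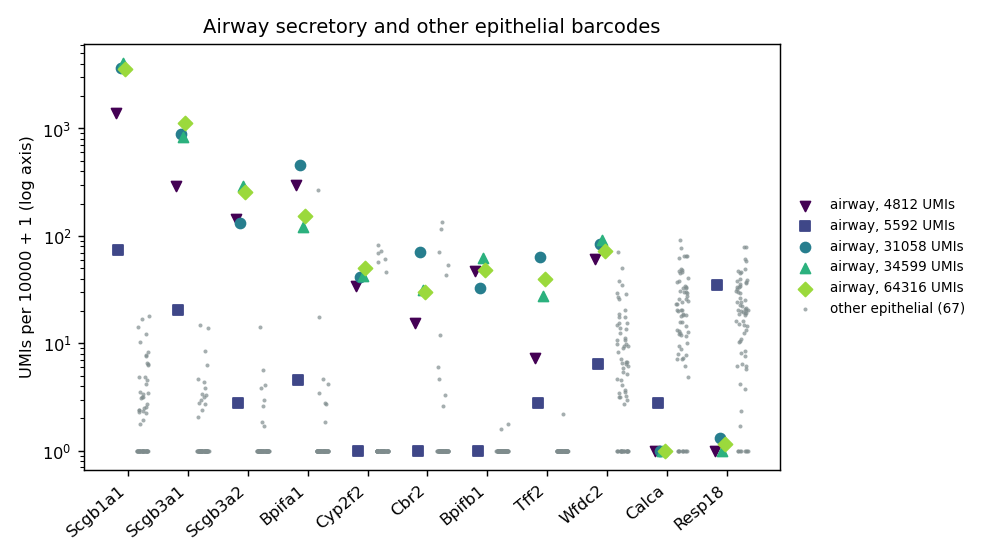
UMIs per 10000 plus 1 (y axis, log) of 11 genes in each of the 5 airway secretory barcodes (coloured symbols, by depth) and in the other 67 epithelial barcodes (grey points). Scgb1a1 lies between 73.3 and 4037 in the airway secretory barcodes, and the barcode of 5592 UMIs is the lowest of the 5.

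Of 3647 genes compared between airway secretory and other epithelial barcodes, 55 were at least 4-fold higher (1.51%) and 673 at least 4-fold lower (18.5%). The median log2 ratio was -1.23, beside a Scgb1a1 level of 346923 CPM in the airway secretory sum, so lower calls are to be read against that shift. Of 13 club cell genes, 2 had chosen the airway secretory barcodes, and of the other 11, 10 were compared and 9 were higher; of 12 mucous or serous gland genes, 7 were compared and 7 were higher. The antimicrobial surface protein Bpifa1 had 142, 2, 1429, 420 and 985 UMIs in the 5 barcodes by rising depth. Its level in the other epithelial barcodes was 567.5 CPM, which gave a ratio of 37.4 (32.8 to 42.8). Of its 243 UMIs in those other barcodes, 209 came from 1 barcode. The lectin-like Reg3g had 4260 CPM in airway secretory barcodes and 292 CPM in other epithelial barcodes, where all 125 of its UMIs came from 1 barcode. Tff2, a trefoil peptide, had 539 UMIs in airway secretory barcodes and 1 in the others, and the mucin Muc5b had 126 UMIs, against 0. Tff2 was in all 5 airway secretory barcodes and Muc5b in 4. Of 20 xenobiotic metabolism genes 15 were compared and 9 were higher, among them Cbr2 and Gsto1. In the other direction, Calca had 1 UMI in airway secretory and 937 in other epithelial barcodes, Nnat 2 and 850, and Pcsk1 2 and 284.

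The windows before Scgb3a1 and Cyp2f2 are printed because both are secretory cell genes and each holds TCAAGTG, a form of the site bound by Nkx2-1, on one of the strands; this motif and CAGCTG are in capitals. Scgb3a1 lies on the plus strand (chr11:49663345-49663594), with the reverse complement CACTTGA beginning 174 bases before the start. Cyp2f2, a cytochrome P450 of club cells, lies on the plus strand (chr7:27119705-27119954), with TCAAGTG 192 and CAGCTG 143 bases before the start.
Scgb3a1: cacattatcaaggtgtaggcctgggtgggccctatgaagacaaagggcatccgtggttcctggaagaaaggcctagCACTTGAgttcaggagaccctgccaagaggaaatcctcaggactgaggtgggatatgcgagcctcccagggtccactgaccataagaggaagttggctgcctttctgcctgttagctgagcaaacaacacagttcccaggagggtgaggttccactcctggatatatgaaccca
Cyp2f2: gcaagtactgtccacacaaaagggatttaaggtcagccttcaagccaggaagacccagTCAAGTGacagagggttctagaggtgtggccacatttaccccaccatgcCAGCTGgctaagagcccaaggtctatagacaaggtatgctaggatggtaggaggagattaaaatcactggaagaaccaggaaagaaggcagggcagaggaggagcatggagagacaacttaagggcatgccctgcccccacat
TCAAGTG on either strand occurs in 2.68% of all windows. Of the 20 genes with the largest airway secretory ratios, 12 had a window and 2 held it (Scgb3a1 and Selenbp1). Cyp2f2 itself had 607 UMIs in airway secretory, 0 in neuroendocrine-like and 363 in remaining barcodes.

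Secretoglobin RNA was also detected outside the airway secretory barcodes. Its level there was not low throughout. The highest Scgb1a1 level in an other non-neuronal barcode, given above, exceeded that of some airway secretory barcodes. Scgb1a1 was detected in 45.6% of neuroendocrine-like, 10.9% of other non-neuronal and 30.5% of neuronal barcodes, at median depths of 6156, 5456.5 and 47822 UMIs. After thinning the shares were 17.5%, 3.17% and 2.12%. The part of free RNA in these shares was not tested. The 3 deepest epithelial barcodes held 98.4% of all Scgb1a1 UMIs of the 72.

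The 10 remaining barcodes were of several kinds. In 8 of them, at least 3 of 13 club cell genes were found, and in 5 of these 8 also at least 3 of 12 basal or squamous genes. The 5 held 4, 6, 7, 8 and 6 club cell genes, at 82.0, 229, 457, 148 and 157 UMIs per 10000, and 4, 3, 4, 5 and 4 basal or squamous genes, at 27.3, 38.8, 48.1, 53.6 and 36.7 UMIs per 10000. The club cell sum was thus the higher in each of the 5. Krt15, a keratin of basal cells, had 6, 28, 19, 52 and 5 UMIs in the same order, and Cyp2f2 had 55, 67, 47, 104 and 17. Dcn, a fibroblast gene, had 6, 6, 12, 9 and 14 UMIs in the same barcodes, and its part in them was not tested. A barcode of 16334 UMIs held 11 of 12 ciliated cell genes, with 10 UMIs of the ciliogenesis factor Foxj1. A barcode of 8256 UMIs held all 9 alveolar type 2 genes, with 1715 UMIs of the surfactant gene Sftpc and 6 of Nkx2-1. A barcode of 10856 UMIs held 10 of 11 mesothelial genes, with 30 UMIs of Upk3b and 44 of Msln and 0 of Cdh1 and Cldn7. The last 2 were shallow, with 1085 UMIs, 7 of them Calca, and 1475 UMIs, 5 of them Piezo2.

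**Figure D5:**
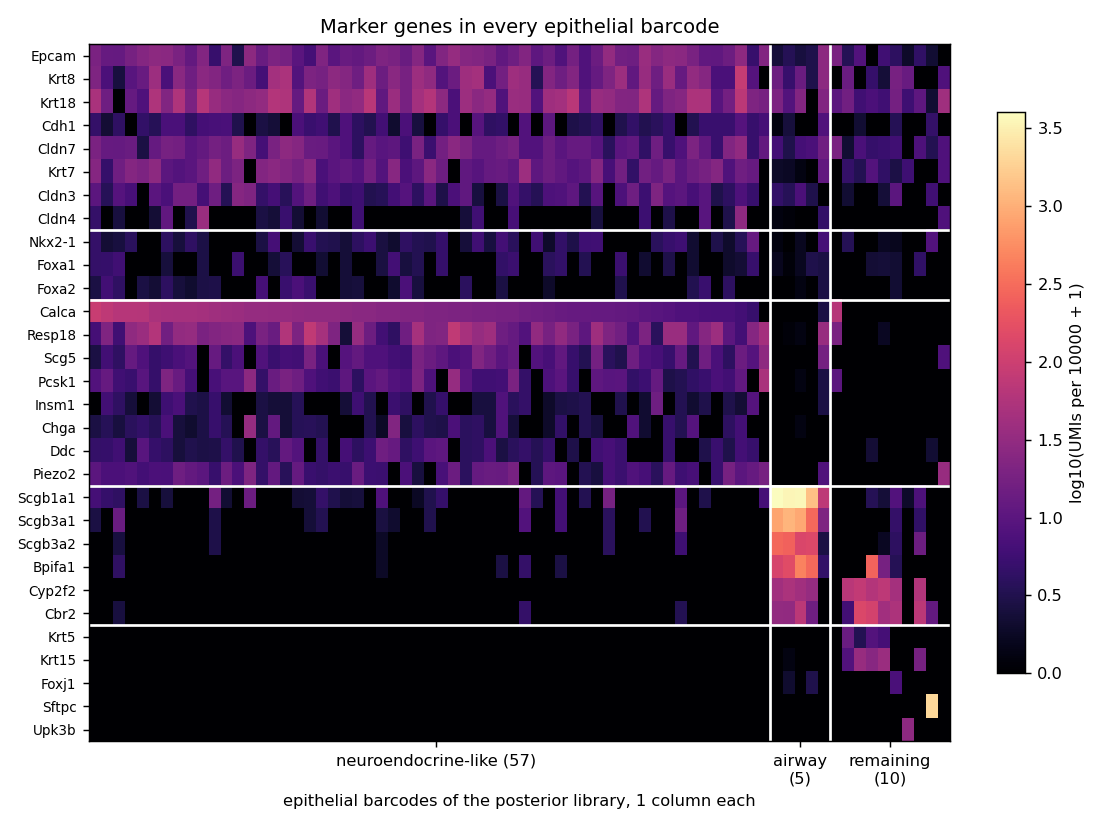
Level of 30 marker genes (rows) in each of the 72 epithelial barcodes (columns, grouped as neuroendocrine-like, airway secretory and remaining), coloured by log10 of UMIs per 10000 plus 1. Neuroendocrine genes fill the 57 columns on the left, secretoglobins the 5 in the middle, and the 10 on the right differ from each other.

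Genes of several other cell types were lower in the epithelial barcodes, and those of others were not. Among all 8508 genes compared, 7.55% were lower and 3.27% higher. All 7 fibroblast genes compared were lower, with Col1a1 at 0 CPM in epithelial and 1213 CPM in other non-neuronal barcodes. Of 9 macrophage genes 8 were lower, of 8 glial genes 7, of 8 cardiomyocyte genes 8, of 7 smooth muscle or pericyte genes 6 and of 6 B cell genes 5. Fewer were lower among endothelial genes (4 of 8), T cell genes (2 of 5), mesothelial genes (0 of 9) and dendritic cell genes (0 of 3). The summed mesothelial level had a median of 0 UMIs per 10000 in epithelial barcodes and reached 131.7 in the barcode of 10856 UMIs. In neuroendocrine-like barcodes 3 of 9 mesothelial genes were lower than in other non-neuronal barcodes, and 10 of 11 were at 0. Of all members of these lists, 11 of 12 T cell, 7 of 8 dendritic cell, 6 of 9 endothelial and 3 of 7 B cell genes were at 0 in epithelial barcodes. So were 5 of 7 tuft cell genes, among them Trpm5, and 4 of 6 ionocyte genes, among them Foxi1. Only 1 gene of each of these 2 lists was compared, and the ionocyte gene was higher while the tuft cell gene did not reach 4-fold. Of the 11 neuron genes, 10 were compared and 0 were higher and 1 lower. Their summed level was 2.18, 16.4 and 46.1 UMIs per 10000 (lowest, median, highest) in epithelial barcodes, against 0, 14.8 and 174 in other non-neuronal barcodes. Snap25, Prph and Stmn2 are among the 11 and are limited in both groups by the rule, so these neuron values are description only. Antigen presentation genes were lower in 11 of 16 cases. B2m, the MHC class I light chain, had 0, 0.389 and 13.8 UMIs per 10000 in epithelial barcodes, against 0, 7.45 and 96.4 in other barcodes, and 103 CPM in neuroendocrine-like and 96.5 CPM in neuronal sums. H2-D1, a class I heavy chain, had 594 CPM in neuroendocrine-like, 1252 CPM in other and 96.8 CPM in neuronal barcodes. The 2 components therefore stood differently relative to neurons.

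The neuroendocrine-like barcodes varied among themselves. Leiden clustering of the 72 gave 5 subclusters, described here by their leading genes with no test. A subcluster of 15 was led by Sprr1a, Gem and Cdkn1a, 1 of 10 by Vwf, C2cd4b and Rbp4, 1 of 20 by Fabp5, Enpep and Egr2, and 1 of 11 by Cldn4, Zcchc12 and Hmgb3. A subcluster of 16 was led by Scgb1a1 and held 4 airway secretory, 4 neuroendocrine-like and 8 remaining barcodes. The number of subclusters was 3 at resolution 0.5 and 10 at resolution 2. Krtap17-1, a keratin-associated protein gene, had 135 UMIs in 33.3% of epithelial barcodes, all of them neuroendocrine-like, and 0 in other non-neuronal barcodes, at least 337-fold higher measured against 3 counts. Iapp, which encodes amylin, had 355 UMIs in 5 barcodes, of which 282 came from 1 barcode and 70 from a second.

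The 8 epithelial barcodes of the mixed library repeated part of this range in a separate library. Calca had 12, 29 and 69 UMIs in 3 of them, which had 6702, 9694 and 10018 UMIs in all, and Resp18 had 41, 63 and 19. The other 5 had 0 UMIs of Calca. A barcode of 27666 UMIs held 10808 UMIs of Scgb1a1, and a barcode of 9680 UMIs held 36 of Upk3b. With 8 barcodes these are given as values.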

How the data were processed

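The deposited files are 10x matrices of raw UMI counts per gene and barcode, made by the authors with Cell Ranger 6.1.2 (posterior, anterior) and 3.1.0 (mixed) per the file headers. The submitters' processing notes name Cell Ranger 7.1.0, Seurat 4.4.2 and mm10 instead. From these counts, levels per 10000 UMIs and summed CPM were computed here (Python 3.11.15, numpy 2.4.6, scipy 1.17.1, pandas 2.3.3, scanpy 1.11.5). The limits are given in the report. Ratios have exact conditional Poisson 95% intervals and shares Clopper-Pearson 95% intervals. With 1 library per region no p-value was computed, and barcodes were not treated as replicates. PCR and capture differences are outside these intervals. Coordinates are those of GENCODE vM21 (GRCm38), matched for all 524 genes looked up. Doublets were scored with Scrublet at an expected rate of 0.03, and none was removed. Thinning used 1 random draw per barcode, so thinned counts vary by a few barcodes between draws.

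The members, the lists and the comparisons were chosen with earlier results of these data known, and the neuroendocrine-like division and 5 added lists after the barcodes had been seen. Named genes were those of the rule, the 25 with the largest epithelial ratio, the 20 highest and 20 lowest airway secretory ratios (at least 50 UMIs and detection in 25% of barcodes), leading members of each list, genes at 0 that define a list, and subcluster leaders; others were named after their values were seen. Some members of the lists are counted but not reported here. On simulated counts for epithelial against other barcodes, 50 of 50 genes raised 8-fold and 49 of 50 lowered 8-fold were called. Of 7895 unchanged genes, 0 were called. For airway secretory against other epithelial barcodes, the calls were 50 of 50 raised, 46 of 50 lowered and 6 of 2369 unchanged genes. For neuroendocrine-like barcodes, 50 of 50 raised genes were called against other non-neuronal and against neuronal barcodes. Lowered genes were called in 48 and 49 of 50, and unchanged ones in 0 of 6929 and 0 of 6187. Recovery of changed genes near the minimum UMIs and CPM was not examined separately. Nor was the effect of barcodes that differ within a group, such as the airway secretory ones. The simulated shares therefore do not give the error of the real calls in those cases.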

Additional observations from a re-analysis of the deposited data

How the results depend on the processing

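No paired analysis was possible because each region has 1 library. With no limit on Snap25, Prph and Stmn2 the epithelial share was 2.93% of all passing barcodes, since neurons then enter the denominator. A limit of 5 per 10000 left 29 epithelial barcodes. Leaving out barcodes with a Ptprc UMI gave a share of 12.3%, and thinning gave 51 barcodes and 6.95%. Other settings gave 66 to 84 epithelial and 4 to 10 airway secretory barcodes, the 10 with an airway limit of 10 per 10000. Genes higher in epithelial barcodes numbered 203 to 374. Genes lower in airway secretory barcodes numbered 1016 with no neuron limit, 375 with a limit of 5, 406 with an airway limit of 10 and 1098 with 1 CPM added in place of 10. Higher ones numbered 124 with no minimum of UMIs. Subclusters numbered 3 and 10 at resolutions 0.5 and 2. Without the airway secretory barcode that holds neuroendocrine genes, 56 genes were higher. Ratios were rerun for 27 genes of the epithelial and 45 of the airway secretory comparison. All kept their direction under every alternative run, though 136 of 324 epithelial and 68 of 630 airway secretory ratios moved outside their intervals. Most of these genes had been picked for extreme ratios in the same data, so a reversal was unlikely from the start. Ratios of single genes in the neuroendocrine-like comparisons were not rerun. The 5 airway secretory barcodes limit what any of their ratios can carry, and depth limits the detection of low genes in epithelial barcodes.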

Other observations

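A pair of Notch pathway genes was singled out after their values were seen. Hes1, a Notch target, had 5.74 CPM in neuroendocrine-like and 16.7 CPM in neuronal barcodes, 1083 CPM in airway secretory barcodes (detected in 3 of the 5) and 344 CPM in other non-neuronal barcodes. Dll1, a Notch ligand, had 68.9 CPM in neuroendocrine-like, 14.2 CPM in airway secretory and 2.81 CPM in other non-neuronal barcodes.

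Vwf, known from endothelium, had 178 CPM in neuroendocrine-like barcodes, against 32.4 CPM in other non-neuronal barcodes, and was detected in 42.1% and 2.57% of them. The endothelial genes Pecam1, Cdh5 and Cldn5 were at 0 in neuroendocrine-like barcodes. Cd9, a tetraspanin, had 39.0, 82.9 and 193 UMIs per 10000 (lowest, median, highest) in neuroendocrine-like barcodes, against 0, 4.70 and 106 in other non-neuronal and 0, 14.7 and 243 in neuronal barcodes, so every neuroendocrine-like barcode lay above the median of both.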
